A study of Homo sapiens with 24 samples.

Results

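RAB proteins are small GTPases of membrane traffic, and their transcripts were followed here in Burkitt lymphoma cells induced to make the miR-28 precursor. The set holds every probe set whose only annotated gene symbol is 1 of 45 listed RAB genes, which gave 110 probe sets for 44 genes, of 54613 probe sets on the array that are not controls. RAB34 had only probe sets shared with a second symbol and was not analysed here.

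P3HR1 is an established Burkitt lymphoma line, and the arrays come from cells carrying the doxycycline-inducible pRTS1 vector. The 4 groups of 6 arrays are miR28 cells at 24 h, CTR cells at 24 h, miR28 cells at 12 h and CTR cells at 12 h of induction. The miR28 vector makes green fluorescent protein (GFP) with the miR-28 precursor, and the CTR vector makes GFP alone. Each vector was carried by 2 bulk populations, A and B, and each population was induced 3 times at each time. All groups received doxycycline, at 0.1 ug/ml in the treatment field and 1 ug/ml in the source field of the labels. The letters are not known to pair a miR28 population with a CTR population, and all arrays are of induced cells, so differences present before induction cannot be told apart from the effect of the precursor.

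A RAB protein switches between a GTP-bound form, which recruits effectors to one kind of membrane, and a GDP-bound form, which is drawn back into the cytosol. Exchange factors load GTP, GTPase-activating proteins trigger its hydrolysis, and prenylation anchors the protein in the membrane. In B cells this machinery serves uptake of antigen, its delivery to the compartments that load MHC molecules, and secretion. A microRNA pairs through its seed with messenger RNAs and lowers their stability or translation.

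The induced hairpin gives the mature arms miR-28-5p and miR-28-3p. Both arms are agents that differ between the vectors. Only the sequence of the 3p arm is shown, since that of the 5p arm was not in the reference used here. The 3p sequence is the RefSeq entry on build GRCh38.p14 at chr3:188688834-188688855, plus strand, within the bounds of the host gene LPP. Capitals mark the seed, bases 2 to 8 from the 5′ end.
miR-28-3p: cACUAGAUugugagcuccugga
No probe set of the array was annotated to the microRNA gene (0 probe sets), so its induction was not measured here.

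All values are the deposited probe-set intensities on a linear scale. Median intensity per array lay between 73.23 and 93.16, and arrays of one group correlated across probe sets with r of 0.94 to 0.96. The ratio of 3′ to 5′ signal of the ACTB control, a sign of RNA quality, exceeded 1 on the log2 scale on 2 arrays. They were CTR population B induction 2 at 24 h (1.59) and miR28 population B induction 2 at 12 h (1.05). The 9 B-cell marker genes with a probe set stood at a median of 4220. The 4 NK-cell genes had a median of 34.9, the 5 myeloid genes 57.9 and the 5 T-cell genes 63.6. Markers of epithelium and fibroblasts (6 genes) reached a median of 92.4, and 3 of them passed the filter, with DCN highest at 515. Of these marker genes BANK1, a B-cell scaffold protein, was the 1 called between miR28 and CTR cells at 24 h. Among the B-cell markers the complement receptor gene CR2 was dim, at 15.2.

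Of the 110 RAB probe sets 85 had a mean above the filter (6.108 on the log2(intensity + 8) scale) and were tested, covering 35 genes. The tested probe sets had mean intensities of 63.1 to 16350. The other 25 lay between 8.55 and 48.9. For 9 genes no probe set passed, namely RAB6A, RAB9B, RAB13, RAB25, RAB27B, RAB31, RAB32, RAB37 and RAB38. For RAB6A this concerns a single probe set (34.1), since others for it share the symbols of RAB6 copies and were not used. RAB13 and RAB25, known from epithelial cells, reached 45.3 and 20.7, and RAB32 and RAB38, which act in pigment granule formation, reached 37.6 and 13.5. In bulk RNA, fewer cells with a transcript and less transcript per cell cannot be told apart.

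After 24 h of induction, 3 RAB probe sets were lower in miR28 than in CTR cells and none was higher. They belonged to RAB8B, RAB14 and RAB23, which act in transport to the plasma membrane, in traffic between endosomes and Golgi, and in ciliary signalling. The calls rest on limma's moderated test with Benjamini-Hochberg adjustment over all 27306 probe sets tested, at an adjusted p under 0.05. They amount to 3.53% of the 85 RAB probe sets, while 2.75% of all probe sets were called in either direction, 1.48% lower and 1.27% higher. The share in the family thus lay near that of the array. An unadjusted p under 0.05 was reached by 11 of the 85 RAB probe sets and by 15.7% of all probe sets. The median log2 difference was 0.03 over the RAB probe sets and 0.01 over all, and 81 of the 85 RAB values lay within 0.5 of 0. The 95% interval of a RAB probe set reached, at the median, 0.31 to either side.

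**Figure D1:**
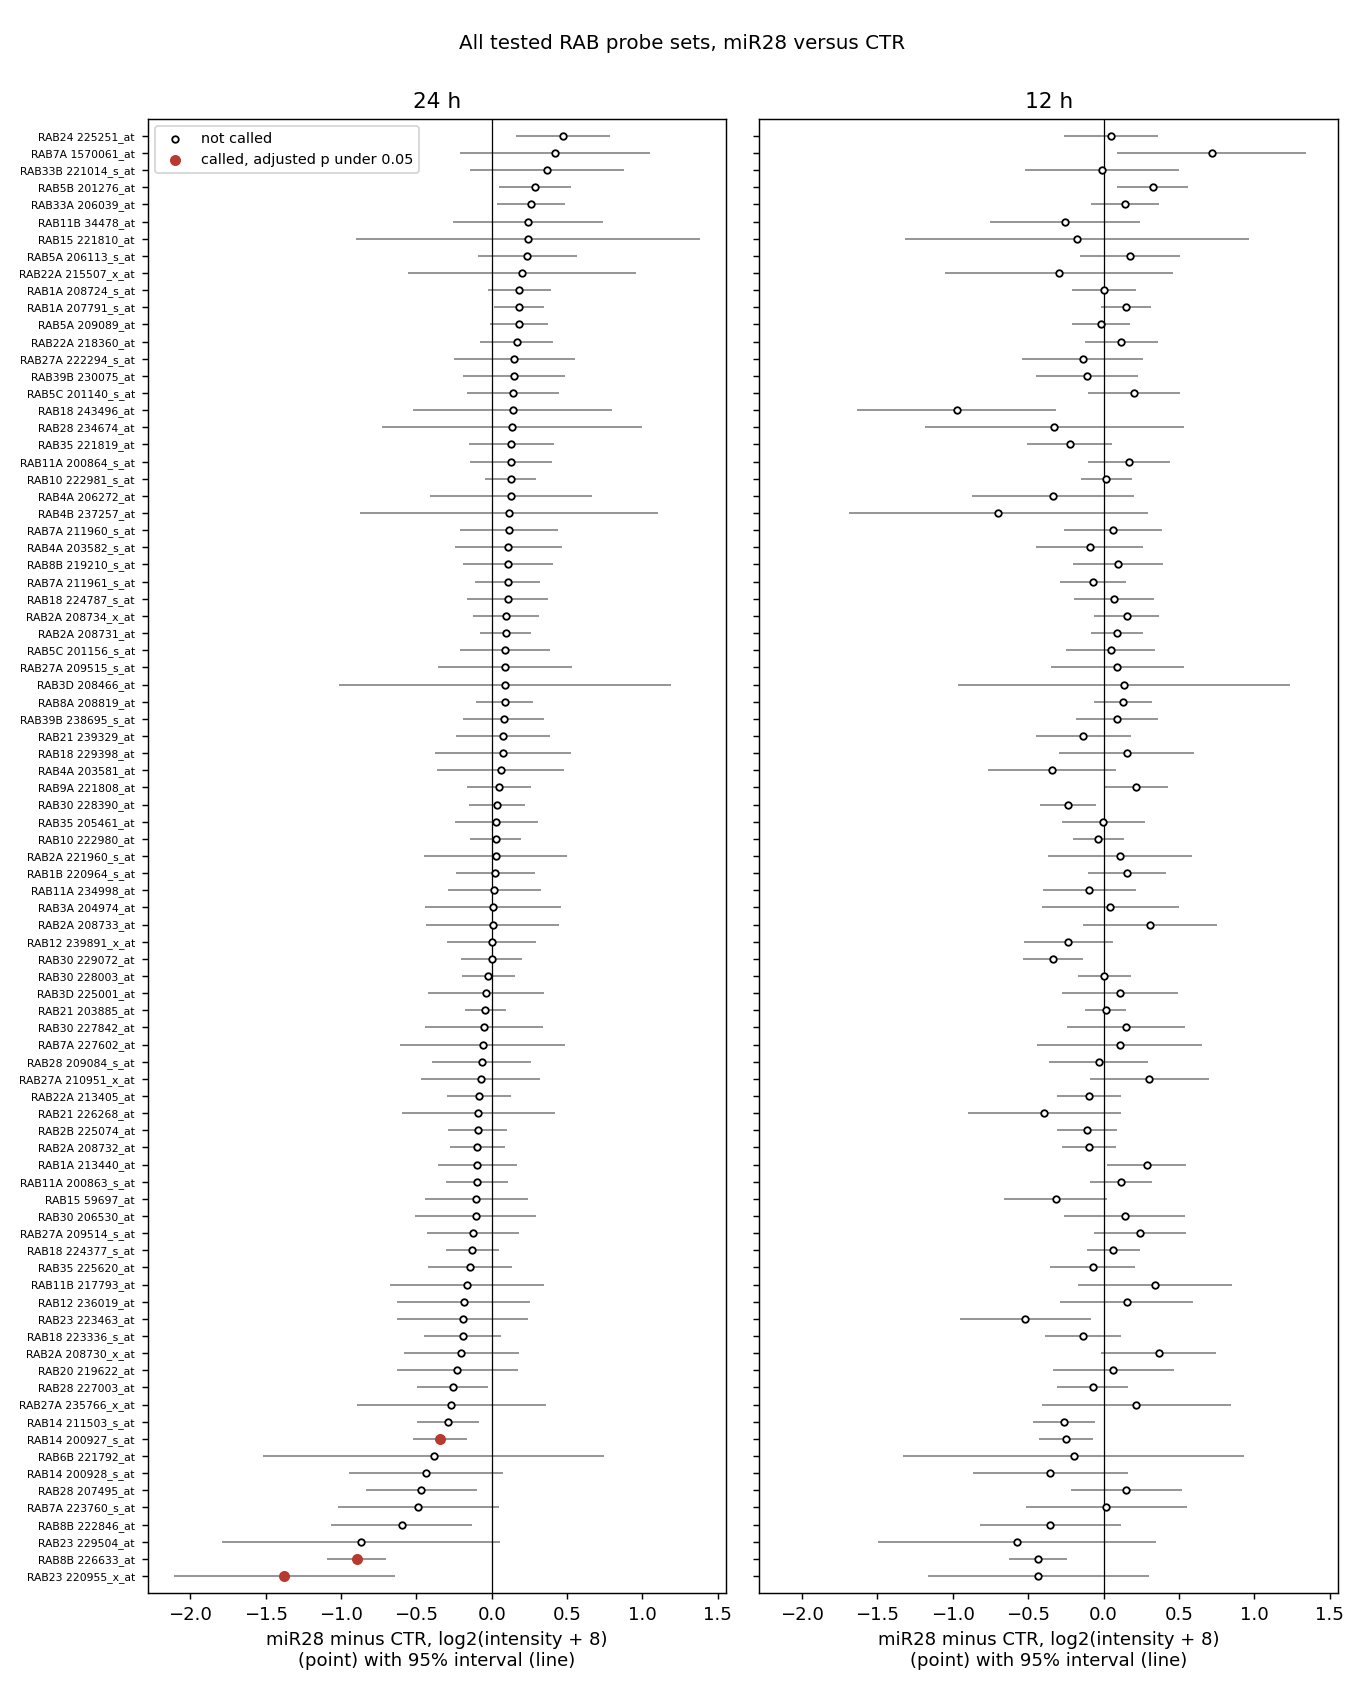
Log2 differences (miR28 minus CTR, points) with 95% intervals (lines) for the 85 tested RAB probe sets, at 24 h on the left and at 12 h on the right, ordered by the difference at 24 h. Filled points are the 3 called at 24 h, of RAB23, RAB8B and RAB14, in the lower part of the left panel, and at 12 h none is called.

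RAB8B, a close relative of RAB8A that carries vesicles to the cell surface, gave the RAB call with the smallest p. Its probe set 226633_at ran from 1219 to 1674 (median 1462) in miR28 cells at 24 h, against 2438 to 3155 (median 2658) in CTR cells at 24 h. Every miR28 array lay below every CTR array, which held for 2 RAB probe sets and for 1.36% of all probe sets. The opposite, every miR28 array above every CTR array, held for 0 RAB probe sets and 1.11% of all. The means were 1466 ± 154 in miR28 cells and 2733 ± 272 in CTR cells (SD, n = 6 each), a log2 difference of -0.90 ± 0.09 (SE; limma adjusted p 1.74e-05), or 1.86-fold lower. Both miR28 populations, at means of 1579 (A) and 1353 (B), were below both CTR populations, at 2793 (A) and 2672 (B). The call held without each array in turn, with a difference of -0.94 to -0.84. It did not pass with population means as the units (limma adjusted p 0.216), a fit in which 0 of all 27306 probe sets passed at 24 h. Nor did it pass within population A (-0.82, limma adjusted p 0.102) or B (-0.98, limma adjusted p 0.0657) alone. Of all probe sets 2 passed at 24 h within A and 1 within B.

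The other RAB8B probe sets were not called at 24 h. On 222846_at miR28 cells at 24 h ran from 292.6 to 725.8 (median 449.8) and CTR cells at 24 h from 279.6 to 1004 (median 813.7). The groups overlapped, and CTR population B induction 2, the array with the ACTB ratio of 1.59, lay at 279.6 below every miR28 array. The log2 difference was -0.60 ± 0.23 with that array (limma adjusted p 0.175) and -0.86 ± 0.16 without it (limma adjusted p 0.0038). Without it the other 5 CTR arrays ran from 702.3 to 1004, so that only the highest miR28 array reached into their range. The part of RNA quality in that single value was not tested.

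On the third RAB8B probe set, 219210_s_at, miR28 cells at 24 h ran from 561.8 to 881.9 (median 809.2) and CTR cells at 24 h from 529.8 to 1005 (median 731.9). The groups overlapped over most of their range, and the difference was 0.11 ± 0.14 (95% interval -0.19 to 0.41; limma adjusted p 0.78). Since both readings come from the same arrays, the log2 ratio of 226633_at to 219210_s_at was compared directly. It was 0.92 ± 0.29 in miR28 cells and 1.92 ± 0.35 in CTR cells at 24 h (SD, n = 6 each), a difference of -1.01 (exact two-sided permutation p 0.00433; 0.026 after adjustment over 12 ratios). At 12 h the ratio was 1.44 ± 0.12 in miR28 cells and 1.98 ± 0.38 in CTR cells, a difference of -0.53 (exact permutation p 0.00216, the smallest that 6 against 6 arrays allow; adjusted 0.026). The ratio of 226633_at to 222846_at differed by -0.30 at 24 h (exact permutation p 0.429; adjusted 0.643). The ratio of 219210_s_at to 222846_at differed by 0.71 at 24 h (exact permutation p 0.0238; adjusted 0.0571), and by 0.88 without the CTR array of high ACTB ratio (exact permutation p 0.00649). At 12 h it differed by 0.45 (exact permutation p 0.00866; adjusted 0.0346). All pairs of probe sets of RAB8B and RAB23 were compared with their values known, and the arrays are inductions of 2 populations a vector, so these p-values describe the arrays and are no independent evidence that the probe sets differ. Which transcripts each probe set reads was not determined here.

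**Figure D2:**
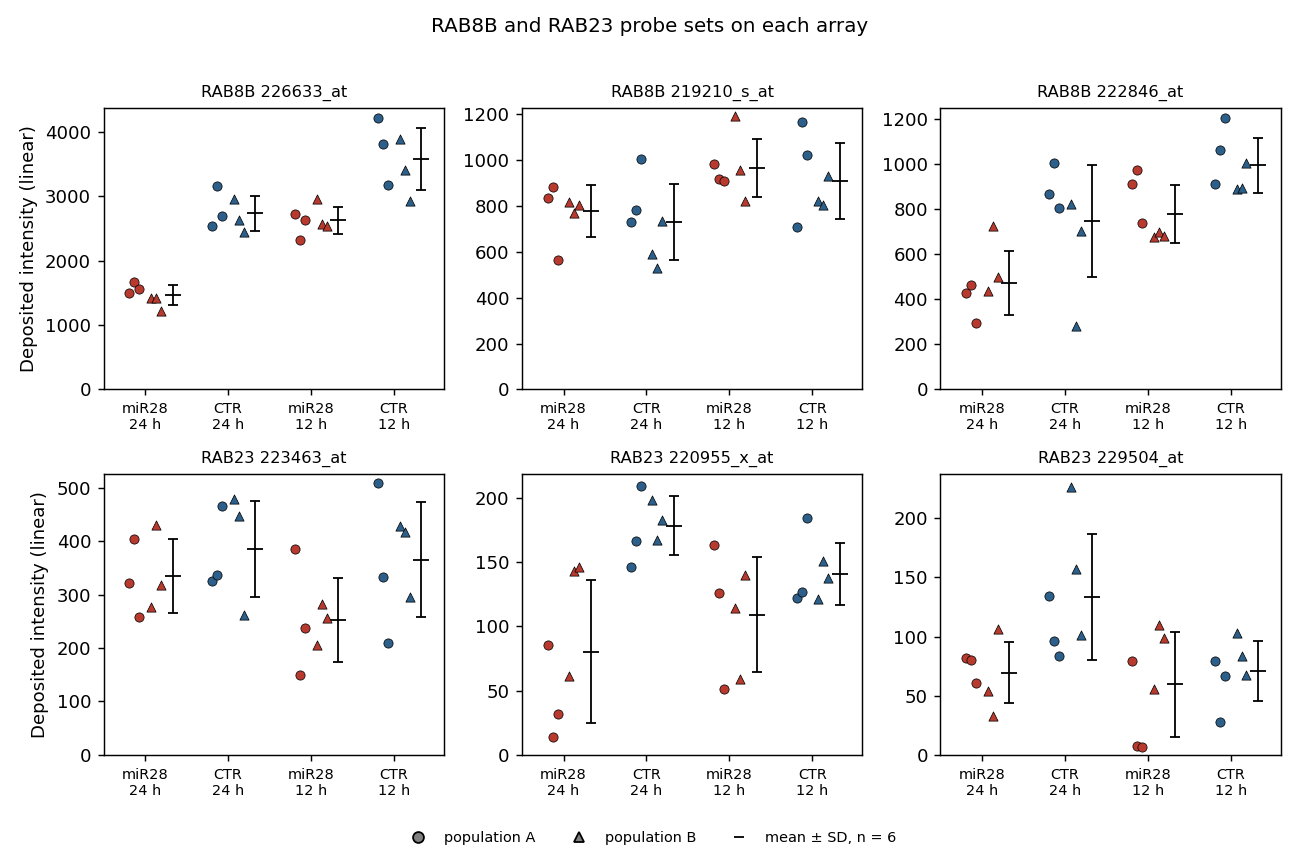
Deposited intensity (linear axis from 0) of the 3 RAB8B probe sets (top) and the 3 RAB23 probe sets (bottom) on all 24 arrays, with circles for population A, triangles for population B and the mean ± SD of 6 arrays beside them. On 226633_at all 6 miR28 arrays at 24 h lie below all CTR arrays, while on 219210_s_at the groups overlap. On 222846_at a single CTR triangle at 24 h lies at 279.6, below the miR28 arrays.

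RAB8A, the closest relative of RAB8B, was read by 1 probe set and was not called. It ran from 2909 to 3749 (median 3280) in miR28 cells and from 2711 to 3665 (median 3076) in CTR cells at 24 h. The log2 difference was 0.09 ± 0.09 (95% interval -0.10 to 0.28; limma adjusted p 0.722), so the groups overlapped and a fall of the size seen on 226633_at lay outside the interval.

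RAB14, which recycles cargo between endosomes and the Golgi, had negative differences on all 3 of its probe sets and was called on 1. On 200927_s_at miR28 cells at 24 h ran from 2528 to 3227 (median 2956), against 3274 to 4148 (median 3756) in CTR cells at 24 h. The groups did not overlap. The means were 2930 ± 274 in miR28 cells and 3714 ± 369 in CTR cells (SD, n = 6 each), a log2 difference of -0.34 ± 0.09 (limma adjusted p 0.0342). On 211503_s_at the ranges were 3597 to 4276 (median 3739) in miR28 cells and 4239 to 5662 (median 4472) in CTR cells, with a difference of -0.29 ± 0.10 (limma adjusted p 0.121). There the groups met at the highest miR28 and the lowest CTR array. On the dim 200928_s_at the difference was -0.44 ± 0.25 (limma adjusted p 0.416). The call on 200927_s_at held in 18 of 24 fits that left out 1 array, with a difference of -0.38 to -0.30 and adjusted p up to 0.0853. The arrays whose removal ended it, named by population and induction, were CTR A3, B2 and B3 and miR28 A1, B1 and B2, all at 24 h. After median centring of the arrays the difference was -0.28 (limma adjusted p 0.132), and with the population letter as a fixed block the call was lost too (limma adjusted p 0.0524).

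RAB23, a negative regulator of Hedgehog signalling in mouse, has been reported as a miR-28 target from work that drew on these arrays, so its direction here is not independent evidence. Its probe set 220955_x_at ran from 14.2 to 146.6 (median 73.4) in miR28 cells at 24 h, against 146.1 to 209.3 (median 175.2) in CTR cells at 24 h. The groups met at 1 value, since the highest miR28 array stood just above the lowest CTR array. The log2 difference was -1.38 ± 0.35 (limma adjusted p 0.0357), with means of 80.3 ± 55.6 in miR28 cells and 178.5 ± 23.1 in CTR cells (SD, n = 6 each). The 2 miR28 populations stood apart, at 43.7 (A) and 117 (B), while the CTR populations were at 174.1 (A) and 182.9 (B). The probe set was dim, and the miR28 A mean lay within the range of the RAB probe sets below the filter (8.55 to 48.9). Within population A the difference was -2.05 and within B -0.70, and neither passed alone (limma adjusted p 0.237 and 0.489). Of all 27306 probe sets 2 passed within A and 1 within B. The effect in A minus that in B was -1.36 and did not pass (limma adjusted p 0.78).

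The other RAB23 probe sets did not pass at 24 h. On 223463_at, which had the highest mean of the 3, miR28 cells ran from 257.6 to 430.6 (median 320) and CTR cells from 261.1 to 480 (median 392), almost wholly overlapping. Its difference was -0.19 ± 0.21 (95% interval -0.63 to 0.24; limma adjusted p 0.728). On 229504_at the ranges were 32.8 to 106.3 (median 70.8) in miR28 cells and 83.8 to 226.9 (median 117.8) in CTR cells, and the difference was -0.86 ± 0.44 (limma adjusted p 0.36). The log2 ratio of 223463_at to 220955_x_at was 2.24 ± 1.12 in miR28 cells and 1.06 ± 0.30 in CTR cells at 24 h, a difference of 1.18 (exact two-sided permutation p 0.013; adjusted 0.039). At 12 h this ratio differed by -0.08 (exact permutation p 0.816, adjusted 0.89). The ratio of 223463_at to 229504_at differed by 0.67 at 24 h (exact permutation p 0.0541, adjusted 0.108). That of 220955_x_at to 229504_at differed by -0.51 (exact permutation p 0.409, adjusted 0.643). At 12 h these ratios differed by 0.05 and 0.14 (exact permutation p 0.913 and 0.814). The call on 220955_x_at held in 16 of 24 fits that left out 1 array, with a difference of -1.60 to -1.03 and adjusted p up to 0.09. It was lost without any 1 of CTR A2, A3, B1, B2 or B3, or of miR28 A2, A3 or B1, at 24 h. It was also lost with the replicate labels as a block (limma adjusted p 0.0616).

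Across the family, 23 genes had 2 or more tested probe sets. The spread of their log2 differences at 24 h within a gene had a median of 0.27 and exceeded 1 for 2 genes, RAB8B (1.01) and RAB23 (1.18). RAB7A followed at 0.91, from -0.49 on 223760_s_at to 0.42 on 1570061_at, neither of them called. For RAB14 the spread was 0.14.

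The remaining RAB genes are given by the membranes they serve. In the early secretory pathway and Golgi 24 probe sets of 9 genes were tested at 24 h, with differences from -0.39 (RAB6B) to 0.37 (RAB33B), a median of 0.02 and 0 calls by limma (2 under an unadjusted p of 0.05). RAB1A, which tethers vesicles between the endoplasmic reticulum and Golgi, gave 0.18 ± 0.10 on its brightest probe set. RAB2A, of the same step, gave 0.09 ± 0.08, and RAB18, linked to lipid droplets, 0.11 ± 0.13. RAB33A, a Golgi-associated member, ran from 743.8 to 1029 (median 846.8) in miR28 cells and from 582.5 to 872.2 (median 744.5) in CTR cells at 24 h, with a difference of 0.26 ± 0.11 (limma adjusted p 0.223). None of these values passed.

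Of early and recycling endosomes 29 probe sets of 13 genes were tested at 24 h, with a median of 0.08 and only RAB14 called. RAB5A, RAB5B and RAB5C, which direct fusion of early endosomes, gave 0.18 ± 0.09, 0.29 ± 0.11 and 0.09 ± 0.14 on their brightest probe sets, none of them called (limma adjusted p 0.36, 0.199 and 0.828). RAB4A, of fast recycling, gave 0.11 ± 0.17. RAB11A, of slow recycling, gave -0.10 ± 0.10, with an interval from -0.30 to 0.11. RAB21, an endosomal regulator of integrin traffic, gave -0.04 ± 0.06, the narrowest interval among these (-0.18 to 0.09). RAB35, of recycling to the plasma membrane, gave -0.14 ± 0.14.

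Of late endosomes, lysosomes and related organelles 11 probe sets of 5 genes were tested at 24 h, with a median of 0.08 and 0 calls by limma (1 under an unadjusted p of 0.05). RAB7A, which takes late endosomes to lysosomes, gave 0.11 ± 0.10 on its brightest probe set, and RAB9A, of return to the Golgi, gave 0.05 ± 0.10. RAB24, linked to autophagy, ran from 353.3 to 644.7 (median 554) in miR28 cells and from 284.6 to 448.6 (median 370.5) in CTR cells at 24 h. Its difference of 0.47 ± 0.15 had an adjusted p of 0.0988 by limma, and 0.0404 when the filter was set at the 75th percentile of probe-set means, where fewer probe sets were tested. The groups overlapped.

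Of the genes of exocytosis 14 probe sets of 6 genes were tested at 24 h, and only RAB8B was called. RAB10, which brings vesicles to the surface, gave 0.03 ± 0.08, with an interval from -0.14 to 0.20. RAB27A, of secretory lysosomes and exosomes, gave -0.07 ± 0.19 on its brightest probe set, and RAB3A and RAB3D, of regulated secretion, gave 0.01 ± 0.22 and -0.04 ± 0.19. RAB28, set beside RAB23 for its known role at cilia, gave -0.26 ± 0.11 on 227003_at (limma adjusted p 0.259) and -0.47 ± 0.18 on 207495_at (limma adjusted p 0.177). Over the 4 tested RAB28 probe sets the difference ran from -0.47 to 0.13 (234674_at), and none of them was called.

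The 25 probe sets below the filter entered a fit with no filter, in which their lowest limma adjusted p was 0.571 at 24 h and 0.578 at 12 h. Their log2 differences at 24 h had an SE of 0.31 to 0.68. Among tested RAB probe sets the SE was 0.06 for the most precise and 0.35 for RAB23 220955_x_at. RAB31 217762_s_at at -1.04 ± 0.60 and RAB32 204214_s_at at 1.03 ± 0.56 were not called in the fit with no filter (limma adjusted p 0.605 and 0.571). Differences larger than their SE could thus go uncalled there.

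At 12 h limma called 0 of the 85 RAB probe sets between miR28 and CTR cells, and 0.165% of all probe sets, 0.0439% higher and 0.121% lower. An unadjusted p under 0.05 was reached by 11 of the 85 RAB probe sets and by 8.02% of all probe sets. The groups were fully apart for 0 RAB probe sets, against 0.37% of all in the lower and 0.3% in the higher direction. The median difference was 0.01 over the RAB probe sets and 0.00 over all. RAB8B came nearest on 226633_at, with 2321 to 2958 (median 2599) in miR28 cells and 2930 to 4215 (median 3613) in CTR cells. The groups met only at the highest miR28 and the lowest CTR array. The difference was -0.44 ± 0.09 (limma adjusted p 0.0562), and it passed with quantile normalization (limma adjusted p 0.0493), with the filter at the 75th percentile (0.0171), with 1 probe set a gene (0.0259) and without CTR B3 at 12 h (0.0362). The other RAB8B probe sets gave -0.35 (222846_at) and 0.09 (219210_s_at) at 12 h, neither of them called (limma adjusted p 0.769 and 0.945).

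At 12 h the 3 RAB23 probe sets gave -0.52 ± 0.21 (223463_at), -0.43 ± 0.35 (220955_x_at) and -0.57 ± 0.44 (229504_at), with limma adjusted p of 0.515, 0.85 and 0.839. On 223463_at miR28 cells ran from 150.1 to 385.2 (median 246.5) and CTR cells from 208.6 to 509 (median 375.2), so the groups overlapped. RAB14 gave -0.25 ± 0.09 on 200927_s_at and -0.26 ± 0.10 on 211503_s_at (limma adjusted p 0.392 and 0.476). RAB8A gave 0.13 ± 0.09 (limma adjusted p 0.812).

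The miR28 effect at 24 h was also set against that at 12 h. By limma 0 of the 85 RAB probe sets and 0% of all probe sets passed, and 6 RAB probe sets and 5.82% of all had an unadjusted p under 0.05. For RAB8B 226633_at the effect at 24 h minus that at 12 h was -0.46 ± 0.14 (limma adjusted p 0.68). For RAB14 200927_s_at it was -0.09 ± 0.13, and for RAB23 220955_x_at -0.94 ± 0.52. A call at 24 h without a call at 12 h is therefore not shown to be a difference between the times. Setting population A against population B gave 0 calls by limma among RAB probe sets and 0% of all at either time. An unadjusted p under 0.05 was reached by 11 of the 85 RAB probe sets at 24 h and by 7 at 12 h. Of all probe sets 6.3% and 5.58% reached it, so the RAB share was the higher at both times.

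Induction time was compared within each vector, 24 h against 12 h. In miR28 cells 1 RAB probe set was called, RAB8B 226633_at, which fell, against 1.88% of all probe sets, 0.981% higher and 0.901% lower. It stood at 1466 ± 154 at 24 h and 2623 ± 212 at 12 h (SD, n = 6 each), a log2 difference of -0.84 ± 0.10 (limma adjusted p 0.000215), and the ranges did not overlap, as for 1.25% of all probe sets in this direction and 1.32% in the other. RAB8B 222846_at stood at 473.7 ± 142 at 24 h and 779.2 ± 129 at 12 h, a difference of -0.74 ± 0.23 (limma adjusted p 0.103). It was called without CTR B2 at 24 h (limma adjusted p 0.0149), an array outside this comparison that enters the shared estimate of spread, and with the filter at the 75th percentile (limma adjusted p 0.0387).

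In CTR cells 5 RAB probe sets were called with time, 2 higher and 3 lower, which is 5.88% of the 85 against 3.09% of all probe sets, 1.59% higher and 1.5% lower. RAB8B 226633_at fell here too, to 2733 ± 272 at 24 h against 3571 ± 485 at 12 h, a difference of -0.38 ± 0.10 (limma adjusted p 0.0337). Its fall in miR28 cells and in CTR cells differed by the -0.46 given above, which did not pass. RAB8B 226633_at was thus lower at 24 h than at 12 h with either vector. In CTR cells the call was lost without any 1 of A1, A2, B1 or B2 at 12 h, or of A1, A3, B2 or B3 at 24 h (limma adjusted p up to 0.0805).

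RAB30, a Golgi-associated RAB, fell with time in CTR cells on 2 of its 5 tested probe sets. On 228390_at CTR cells ran from 2022 to 2708 (median 2319) at 24 h, against 2570 to 3712 (median 2955) at 12 h, with a difference of -0.37 ± 0.09 (limma adjusted p 0.0279). On 229072_at CTR cells ran from 1131 to 1444 (median 1266) at 24 h, against 1504 to 1917 (median 1710) at 12 h, with -0.42 ± 0.10 (limma adjusted p 0.0225). The call on 228390_at was lost without any 1 of A1, A2 or B1 at 12 h or A1, A3 or B3 at 24 h, and that on 229072_at without B1 or B2 at 12 h or A2 or A3 at 24 h (limma adjusted p up to 0.072 and 0.0628). On 229072_at the times did not overlap, as for 1.3% of all probe sets in this direction, and on 228390_at they met. In miR28 cells the same probe sets had -0.10 ± 0.09 and -0.09 ± 0.10, and the difference between vectors in the change, 0.27 ± 0.13 and 0.33 ± 0.14, did not pass (limma adjusted p 0.853 and 0.782). The other 3 RAB30 probe sets gave -0.07 ± 0.09, -0.10 ± 0.20 and -0.01 ± 0.20 in CTR cells, none of them called.

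RAB27A and RAB20 were the RAB genes called higher at 24 h in CTR cells. RAB27A 209514_s_at ran from 401.6 to 654.3 (median 512.7) at 24 h, against 205 to 410.6 (median 359.2) at 12 h, with a difference of 0.61 ± 0.15 (limma adjusted p 0.032). The times overlapped, and the call was lost without any 1 of B1 or B2 at 12 h, or of A1, A2, A3 or B3 at 24 h (limma adjusted p up to 0.0827). A second RAB27A probe set, 210951_x_at, gave 0.61 ± 0.20 (limma adjusted p 0.0965). RAB20, an endosomal and phagosomal RAB, ran from 344.8 to 492.9 (median 374) at 24 h, against 131.3 to 295 (median 244.4) at 12 h on 219622_at. The times did not overlap, as for 1.51% of all probe sets in this direction, and the difference was 0.73 ± 0.20 (limma adjusted p 0.0497). The RAB20 call held in 5 of 24 fits that left out 1 array (CTR A1 or miR28 A1 or B1 at 12 h, or miR28 A1 or B1 at 24 h) and was lost in the others, with differences of 0.57 to 0.80 and adjusted p up to 0.112. In miR28 cells RAB27A gave 0.24 ± 0.15 and RAB20 0.43 ± 0.20 with time, not called (limma adjusted p 0.5 and 0.303). Median centring left RAB27A alone of the 5 called in CTR cells.

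**Figure D3:**
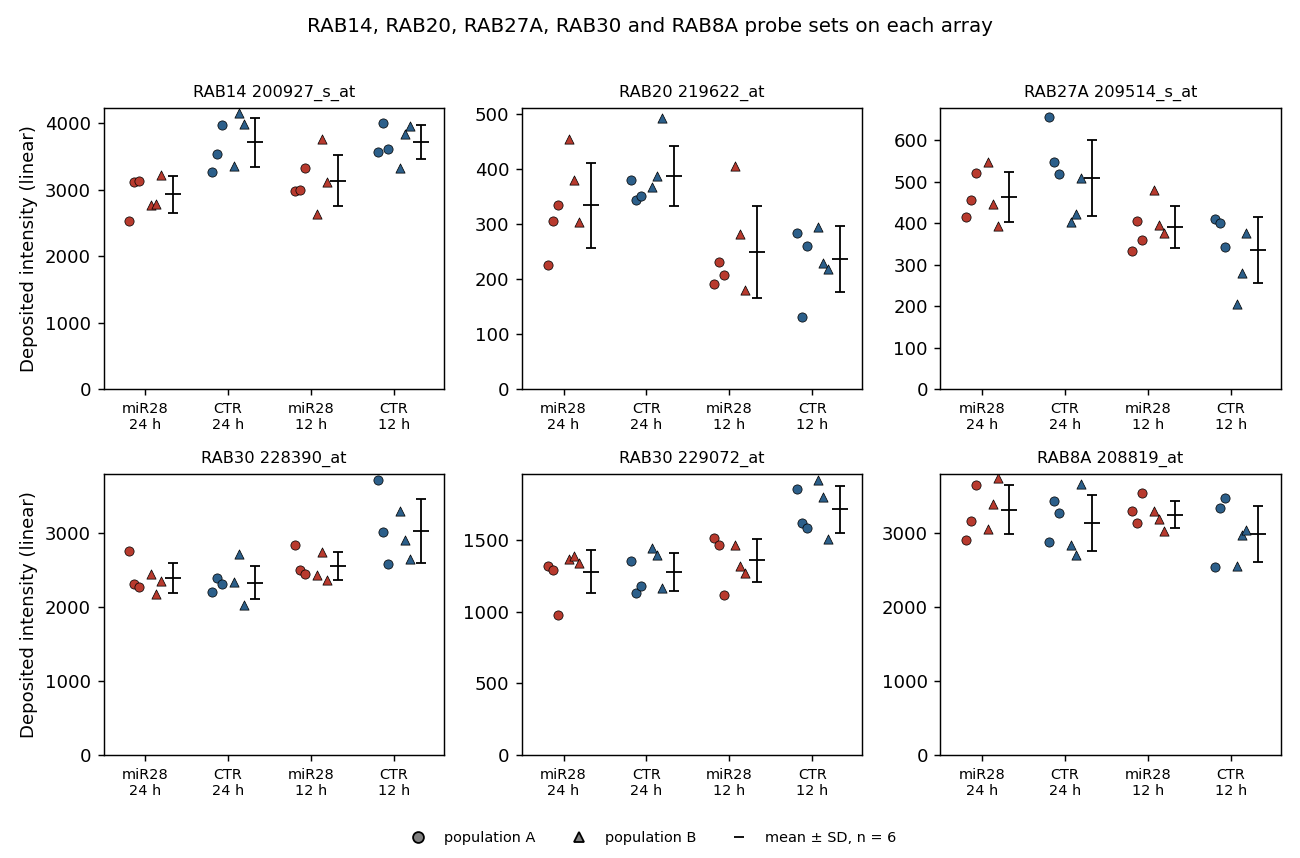
Deposited intensity (linear axis from 0) on all 24 arrays of the called probe sets of RAB14, RAB20, RAB27A and RAB30 and of RAB8A, with circles for population A, triangles for population B and the mean ± SD of 6 arrays. RAB14 is lower in miR28 than in CTR cells at 24 h without overlap, RAB20 and RAB27A are higher and RAB30 lower at 24 h than at 12 h in CTR cells, and RAB8A overlaps throughout.

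**Figure D4:**
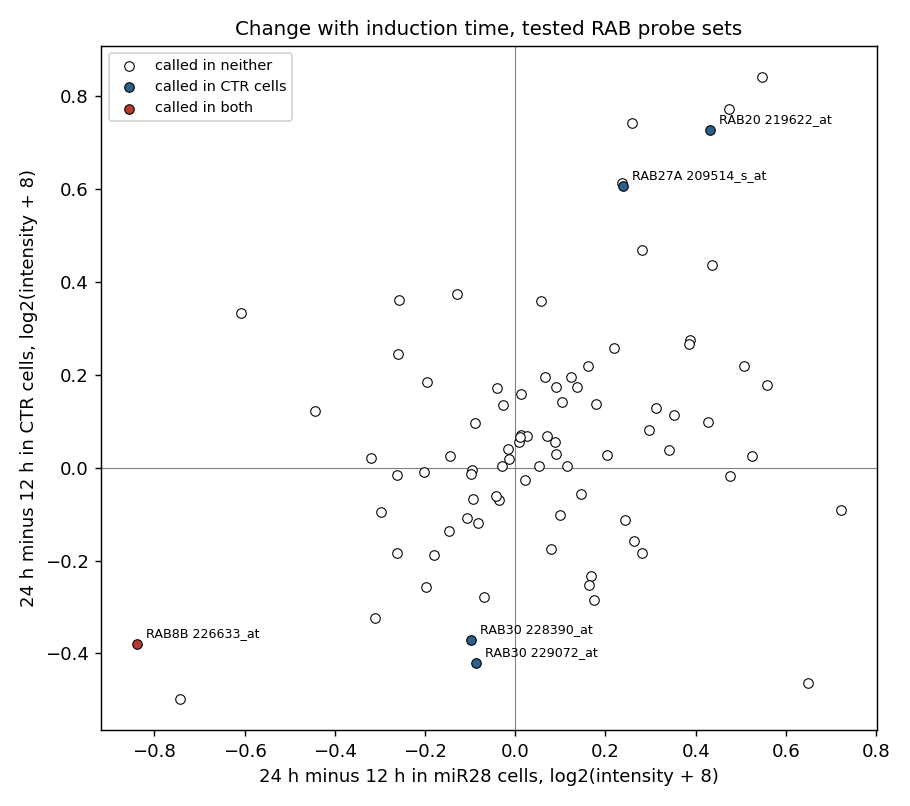
Change with induction time of the 85 tested RAB probe sets, in miR28 cells (horizontal) and CTR cells (vertical), both as 24 h minus 12 h on the log2(intensity + 8) scale. RAB8B 226633_at, called in both, lies at -0.84 and -0.38, and the 4 probe sets called in CTR cells but not in miR28 cells are labelled, with no passing test of the difference between the vectors.

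The proteins that load, unload and bind RAB GTPases were read through the brightest probe set of each gene, among which 3.79% of genes were called at 24 h, 1.76% higher and 2.03% lower. At 12 h the share was 0.264%, with 0.0791% higher and 0.185% lower. Of 5 tested genes listed for prenylation and membrane recycling, RABIF among them, limma called 0 at either time. Of these 0 had an unadjusted p under 0.05, and the median difference was 0.05 at 24 h. Of 33 tested genes listed as exchange factors (the RAB-like RABL6 was among them) 1 was called at 24 h. It was DENND2D, of the DENN domain family, at 1743 ± 162 in miR28 cells and 1337 ± 148 in CTR cells (SD, n = 6 each; log2 difference 0.38 ± 0.10; limma adjusted p 0.03). At 12 h limma called 0 exchange factors, with 3 under an unadjusted p of 0.05.

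Of 30 tested GTPase-activating proteins 1 was called higher and 1 lower in miR28 than in CTR cells at 24 h, and 7 had an unadjusted p under 0.05. TBC1D4, known from fat and muscle to act on RAB8A, RAB10 and RAB14, was lower, with 1868 ± 119 in miR28 cells and 2784 ± 145 in CTR cells at 24 h (log2 difference -0.57 ± 0.06; limma adjusted p 1.87e-05). At 12 h it was the 1 gene called, with 2209 ± 158 in miR28 cells and 3087 ± 110 in CTR cells (-0.48 ± 0.06; limma adjusted p 0.000686). TBC1D9, another TBC domain protein, was higher at 24 h, with 921.3 ± 178 in miR28 cells and 510.5 ± 70.0 in CTR cells (0.83 ± 0.14; limma adjusted p 0.00201). Of 36 tested effectors 1 was called at 24 h and 0 at 12 h by limma (8 and 3 under an unadjusted p of 0.05). It was MYO5A, a myosin motor bound by several RAB proteins, which was higher, with 682.5 ± 63.6 in miR28 cells and 529 ± 80.5 in CTR cells at 24 h (0.37 ± 0.10; limma adjusted p 0.0485). These shares, 3.03% of exchange factors, 6.67% of activating proteins and 2.78% of effectors at 24 h, stand beside the 3.79% of all genes.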

How the data were processed

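Per the labels' protocols, biotin-labelled cRNA from 6 ug of total RNA was hybridised to 24 Affymetrix arrays. The deposited values are linear intensity per probe set, from MAS5 per the submitters' processing notes, with version and settings not given in the sources used here. Each column's 2% trimmed mean lay between 500.07 and 500.08, so the authors' scaling was kept. Control probe sets (62 of 54675) were left out. The platform annotation gave 41091 probe sets 1 symbol, 1801 several and 11721 none. Precision is set by the number of arrays, since intensities carry no counted depth.

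Values were analysed as log2(intensity + 8), which understates changes of dim probe sets. The 27306 probe sets above the median mean were fitted with limma 3.58.1 and statmod 1.5.0 (R 4.3.3), as 4 group means with the 4 bulk populations as a random block (consensus correlation -0.0249), tested from both sides and adjusted per comparison. A fit of 8 means compared populations. On simulated data for the 24 h comparison, with 27306 probe sets, 65% of 200 changes of 1 on the log2 scale were called. The simulated noise was independent between arrays, with no deviation shared within a population, so that share does not hold for populations as the unit. Replicates are inductions of 2 populations per vector, so p-values measure mostly the spread between arrays. Same-labelled arrays correlated in their deviations by -0.107 to 0.102. The labels are not stated to pair arrays across groups, and these correlations cannot show whether inductions were run together. Members, lists and the rule for named genes (called RAB probe sets, all of RAB8B, RAB23 and RAB8A, called list genes) were chosen with earlier results of these data known. The other RAB genes and probe sets given with values were chosen after their values were seen.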

Additional observations from a re-analysis of the deposited data

Results flagged for a closer look

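For the 12 RAB probe sets that the text names by rule, each of the 4 groups was checked for an array far from the other 5, and 6 of 48 checks found one, where chance gives about 1 in 20. On RAB8B 219210_s_at, miR28 population A induction 3 at 24 h stood at 561.8, below the next array at 767.9. The same array was low for RAB30 229072_at, at 978.3 against 1288. On RAB8B 222846_at, CTR population B induction 2 at 24 h stood at 279.6 against 702.3, and it is the array with the ACTB ratio of 1.59. CTR population A induction 2 at 12 h was low for RAB20 219622_at, at 131.3 against 219.2, and for RAB23 229504_at, at 27.5 against 66.3. For RAB20 219622_at, CTR population B induction 3 at 24 h was high, at 492.9 against 387.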

How the results depend on the processing

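The RAB counts and named RAB probe sets were recomputed under up to 38 alternatives, 24 of which left out 1 array, and no called RAB difference changed sign. The list genes were not recomputed, and the probe-set ratios only without CTR B2 at 24 h, an alternative chosen after seeing the data. The count of RAB probe sets called at 24 h, main value 3, was 1 with no filter on low values, 1 with median centring and 1 with 1 probe set a gene. It was 0 with population means as the unit or within population A or B alone. Over all probe sets the calls, main value 751 of 27306, were 302 of 54613 with no filter and 623 with median centring. They were 609 of 11380 with 1 probe set a gene, 0 with population means, 2 in A and 1 in B. The fit with 1 probe set a gene kept the brightest, so the called probe sets of RAB14 and RAB23 were not in it. Without the arrays of high ACTB ratio the RAB count at 24 h was 2, both of RAB8B (226633_at and 222846_at), beside 685 of all 27306 probe sets. In that fit RAB14 200927_s_at and RAB23 220955_x_at did not pass (limma adjusted p 0.0506 and 0.0544). At 12 h the count of 0 became 1 with the filter at the 75th percentile, with quantile normalization and with 1 probe set a gene, each time RAB8B. Over all probe sets these fits called 107 of 13653, 61 of 27306 and 61 of 11380, against 45 of 27306 in the main fit. For time in miR28 cells the count of 1 became 3 with the filter at the 75th percentile, 2 with median centring, 2 without the arrays of high ACTB ratio and 2 with 1 probe set a gene. Over all probe sets these fits called 1059 of 13653, 595 and 482 of 27306, and 530 of 11380, against 514 of 27306 in the main fit. For time in CTR cells the count of 5 became 0 with no filter, 1 with median centring, 3 without the arrays of high ACTB ratio and 3 with 1 probe set a gene. Both time counts were 0 with population means as the unit and within either population, fits with fewer samples. In those fits at most 5 of all 27306 probe sets were called. Other causes were not tested.

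Leaving out each array in turn gave 1 to 3 calls at 24 h, 0 to 1 at 12 h, 1 to 2 with time in miR28 cells, 0 to 5 with time in CTR cells, and 0 to 0 for the difference of effects and between populations. The CTR time count was 0 without CTR B1 at 12 h or CTR A3 at 24 h, 1 without CTR B2 at 12 h or CTR A1 at 24 h, 2 without CTR A2 at 12 h or CTR A2 or B3 at 24 h, and 3 without CTR A1 at 12 h or CTR B2 at 24 h. The count at 24 h was 1 without CTR A3, CTR B3 or miR28 B1 at 24 h. Without the random block the count at 24 h was 3, and 618 of all probe sets were called, against 751 with it. The SE of RAB8B 226633_at was 0.0963 without the block and 0.0935 with it, so the block did not widen it. RAB14 200927_s_at and RAB23 220955_x_at had limma adjusted p of 0.0461 and 0.0451 without the block. With the population letter as a fixed block the count at 24 h was 2, RAB14 being lost. With the replicate block the counts were 2 at 24 h, 0 at 12 h, 1 with time in miR28 cells and 5 in CTR cells.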
